A study of Mus musculus with 24 samples.

Results

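Annexins are cytosolic proteins that bind acidic phospholipids of cell membranes when calcium rises, through a conserved core of repeated helical domains. Their N-terminal tails differ and carry the binding sites for partners, many of them small calcium-binding S100 proteins. In liver they are known from bile duct epithelium, macrophages and stellate cells, and their best studied activities are membrane repair, vesicle traffic, fibrinolysis at the cell surface and the binding of exposed phosphatidylserine. Described here are 8 annexin genes, Anxa1, Anxa2, Anxa3, Anxa4, Anxa5, Anxa6, Anxa7 and Anxa11, of 16504 named genes on the array. They were picked by symbol with earlier results of the same data known, so their differences between knockout and wild type are given as a description. The limma calls printed for these differences are part of that description and are not read as a test. Each has 1 feature on the array.

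Hepatic RNA of male mice lacking Abcb4 (strain FVB.129P2-Abcb4tm1Bor/J) was compared with that of FVB/NJ mice, wild type for Abcb4, at 3, 6, 9 and 20 weeks, which a label counts from weaning. Weeks were taken from the titles of the arrays: the source names say 3 weeks on all 24, also on those titled 6, 9 or 20 weeks, and which label is right was not settled by any other source used here. Abcb4 encodes the canalicular transporter that moves phosphatidylcholine into bile, and its loss is a known mouse model of bile duct injury and sclerosing cholangitis. The labels name no treatment, and the knockout lacks Abcb4 in all cells. Each week had 6 two-colour arrays with both genotypes on every array, 3 with the knockout RNA in Cy5 and 3 with it in Cy3. The series text gives 5 mice per genotype and week and a dye swap, and not which arrays hold the same mice, so p-values may count more arrays than mice.

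Values below are log2 ratios, knockout to wild type, and a value with ± is the weekly mean and its SD (n = 6 arrays). A value above 0 means higher in the knockout. The base of the logarithm is not given in the sources used here and was taken as 2, so no linear folds are printed. The direction rests on taking Abcb4 as lower in the knockout: its feature was at -0.87, -1.57, -1.42 and -1.34 in order of week and above 0 on 0 of 24 arrays. Whether that feature lies in the deleted part is unknown. With the opposite reading every higher and lower would be exchanged. Within a week, arrays turned to the same direction correlated with r between -0.0519 and 0.769 over all items, and the 3-week arrays were the least alike, with a median of 0.293 between opposite dye orientations. In whole liver, fewer cells of a type and less RNA per cell cannot be told apart. Ratios hold no level, so the tissue could not be checked by marker levels, and levels of different annexins cannot be ranked. The probe type was not settled, and cross-hybridisation between members of the family was not tested.

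Sequence upstream of the start of transcription was available for 6 of the 8 genes in RefSeq (build GRCm38.p6); for Anxa3 and Anxa6 none was used. The 250 bases before the start are shown for Anxa5 (chr3:36475888-36476137, minus strand) and Anxa2 (chr9:69453433-69453682, plus strand), the members with the highest ratios, and for Anxa11 (chr14:25841905-25842154, plus strand), the member nearest to 0. Capitals mark matches to TATAAA (the TATA box), GGGCGG (the GC box, here also as its reverse complement) and TGANTCA (the AP-1 site), each searched on both strands.
Anxa5: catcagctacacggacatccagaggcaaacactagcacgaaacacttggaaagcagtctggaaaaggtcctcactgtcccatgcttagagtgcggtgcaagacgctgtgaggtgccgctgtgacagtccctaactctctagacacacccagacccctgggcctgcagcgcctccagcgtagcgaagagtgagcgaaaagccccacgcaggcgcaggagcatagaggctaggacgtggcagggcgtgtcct
Anxa2: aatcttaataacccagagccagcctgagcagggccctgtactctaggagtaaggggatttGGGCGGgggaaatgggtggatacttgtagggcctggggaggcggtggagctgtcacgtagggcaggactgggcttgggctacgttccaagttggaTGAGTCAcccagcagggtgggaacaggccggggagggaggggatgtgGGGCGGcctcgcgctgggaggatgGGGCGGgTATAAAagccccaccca
Anxa11: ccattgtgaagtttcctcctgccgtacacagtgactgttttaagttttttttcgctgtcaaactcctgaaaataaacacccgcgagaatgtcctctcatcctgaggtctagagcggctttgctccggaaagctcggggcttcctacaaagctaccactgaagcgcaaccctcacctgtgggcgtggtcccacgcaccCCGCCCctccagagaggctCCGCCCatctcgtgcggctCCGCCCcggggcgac
The Anxa5 window held none of these letters. The Anxa2 window held a TATAAA at position -17 from the start, 3 GC boxes and an AP-1 sequence at position -95, and the Anxa11 window held 3 GC boxes alone. Over 32851 windows of the same length, 12.4% held TATAAA, 32.7% GGGCGG and 6.75% TGANTCA. Among the other members Anxa1 had a TATAAA at position -32, the windows of Anxa7 had GC boxes, and those of Anxa4 had none of the motifs. The matches are letters in a window and were not related to binding.

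The annexins were not alike in the knockout liver. Anxa5 and Anxa2 had the highest ratios, Anxa1, Anxa3, Anxa4, Anxa6 and Anxa7 were moderately higher, and Anxa11 stayed close to 0. Anxa5 had the highest ratio of the 8 genes on 24 of 24 arrays and Anxa2 the next on 24 of 24. In the limma fit at an adjusted p under 0.05, 5 of 8 members were past the threshold at 3 weeks and 7 of 8 at each of 6, 9 and 20 weeks, all higher in the knockout. Over 20861 items tested, the shares called higher were 3.64%, 10.8%, 10.4% and 8.09% in that order of weeks. Because the members were chosen with such results known, nothing is read from these counts. Over the alternatives run, the count ran from 2 to 6 at 3 weeks and from 6 to 7 at 6 and 20 weeks, and was 7 at 9 weeks. At 3 weeks it was 2 without array 1 and 2 without array 4 of that week. Anxa1, Anxa3 and Anxa11 did not pass at 3 weeks (limma adjusted p = 0.562, 0.307 and 0.621). Anxa4 and Anxa7 were close to the threshold then (limma adjusted p = 0.0470 each). Of 32 alternatives at 3 weeks, Anxa4 passed in 10, Anxa7 in 11, Anxa6 in 26, and Anxa2 and Anxa5 in 32. The median of the 8 weekly means was 0.32, 0.54, 0.65 and 0.66 at 3, 6, 9 and 20 weeks, against medians of all items between -0.0034 and -0.0014.

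**Figure D1:**
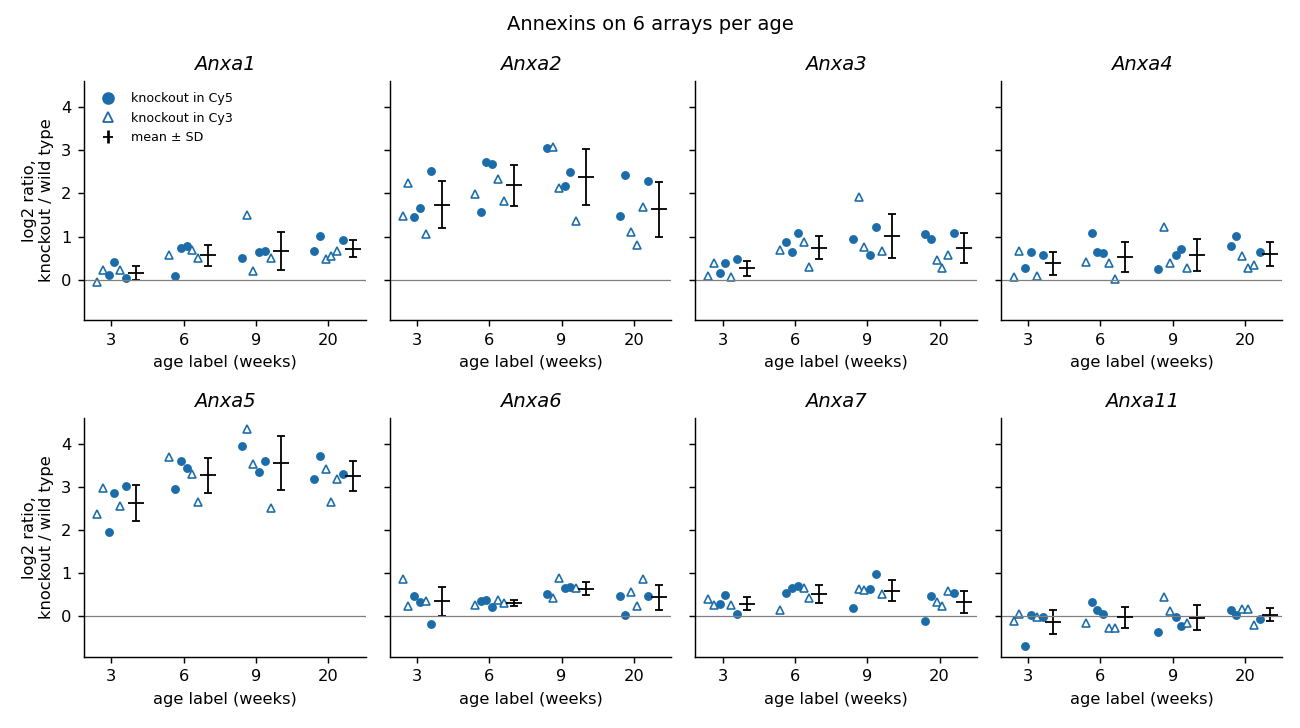
Log2 ratio of knockout over wild type (vertical axis) by week (horizontal axis) for each of the 8 annexins; points are single arrays, filled with the knockout in Cy5 and open with it in Cy3, and bars are the mean ± SD of 6 arrays. Anxa5 and Anxa2 stand above 0 on all 24 arrays, between 1.97 and 4.36 and between 0.81 and 3.09, and Anxa11 scatters around 0.

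Anxa5 encodes the annexin used to detect dying cells, which forms lattices on membranes that expose phosphatidylserine and slows coagulation there. At 3 weeks its log2 ratios ran from 1.97 to 3.03 with a median of 2.71 (2.63 ± 0.41, n = 6). At 6 weeks they ran from 2.65 to 3.70 with a median of 3.38 (3.28 ± 0.40), at 9 weeks from 2.51 to 4.36 with a median of 3.57 (3.55 ± 0.63), and at 20 weeks from 2.66 to 3.73 with a median of 3.25 (3.25 ± 0.35). The arrays of different weeks overlapped, and the lowest array of the series was a 3-week array. By weekly mean, Anxa5 was number 3, 2, 1 and 2 from the top of the 16504 named genes at 3, 6, 9 and 20 weeks.

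Anxa2 encodes the annexin that pairs with S100a10 and binds plasminogen and its activator at the cell surface. Its 3-week log2 ratios ran from 1.06 to 2.53 with a median of 1.56 (1.74 ± 0.55). At 6 weeks the range was 1.57 to 2.73 with a median of 2.16 (2.19 ± 0.47), at 9 weeks 1.37 to 3.09 with a median of 2.34 (2.39 ± 0.65), and at 20 weeks 0.81 to 2.43 with a median of 1.59 (1.64 ± 0.64). All 24 arrays were above 0, and each week overlapped with the others. Its place from the top of the named genes was 19, 13, 8 and 24.

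Anxa1 encodes a glucocorticoid-induced protein that dampens inflammation through formyl peptide receptors. Its log2 ratios at 3 weeks ran from -0.05 to 0.41 with a median of 0.16 (0.16 ± 0.16), the one week at which it was near 0. They ran from 0.09 to 0.77 at 6 weeks (median 0.63, mean 0.56 ± 0.25), from 0.19 to 1.51 at 9 weeks (median 0.56, mean 0.66 ± 0.44) and from 0.49 to 1.01 at 20 weeks (median 0.67, mean 0.72 ± 0.20). Every 20-week array was above every 3-week array.

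Anxa3, best known from the granule membranes of human neutrophils, had log2 ratios at 3 weeks of 0.07 to 0.48 with a median of 0.27 (0.26 ± 0.18). Its log2 ratios then ran from 0.30 to 1.07 at 6 weeks (median 0.79, mean 0.74 ± 0.26), from 0.57 to 1.92 at 9 weeks (median 0.85, mean 1.01 ± 0.50) and from 0.26 to 1.08 at 20 weeks (median 0.76, mean 0.73 ± 0.35). All 24 arrays were above 0. Anxa3 lies on chromosome 5, as Abcb4 does, with 1258 annotated genes between them in GRCm38.p6.

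Anxa4, an annexin of apical epithelial membranes, had log2 ratios of 0.07 to 0.65 at 3 weeks (median 0.41, mean 0.38 ± 0.28) and 0.01 to 1.07 at 6 weeks (median 0.52, mean 0.53 ± 0.35). At 9 weeks they ran from 0.25 to 1.23 (median 0.48, mean 0.57 ± 0.37) and at 20 weeks from 0.26 to 1.00 (median 0.60, mean 0.60 ± 0.28). It was above 0 on 24 of 24 arrays, with weekly means that lay within their spread of each other. Above 0 on all 24 arrays were also Anxa2, Anxa3 and Anxa5, and 1.57% of all items.

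Anxa6, whose core is duplicated and which acts in endocytosis and cholesterol traffic, ran from -0.17 to 0.87 at 3 weeks (median 0.34, mean 0.35 ± 0.34) and in a narrow band from 0.21 to 0.39 at 6 weeks (median 0.33, mean 0.32 ± 0.07). It ran from 0.43 to 0.88 at 9 weeks (median 0.66, mean 0.64 ± 0.15) and from 0.02 to 0.86 at 20 weeks (median 0.48, mean 0.44 ± 0.29). Its 6-week and 9-week arrays did not overlap. Anxa7, a membrane-fusing annexin also called synexin, ran from 0.04 to 0.50 at 3 weeks (median 0.28, mean 0.29 ± 0.15), 0.14 to 0.71 at 6 weeks (median 0.60, mean 0.52 ± 0.21), 0.20 to 0.97 at 9 weeks (median 0.62, mean 0.60 ± 0.25) and -0.11 to 0.58 at 20 weeks (median 0.40, mean 0.34 ± 0.25). Each of the pair was above 0 on 23 of 24 arrays.

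Anxa11, whose long N-terminal tail binds Pdcd6 and S100a6 and which tethers RNA granules to lysosomes, ran from -0.69 to 0.05 at 3 weeks (median -0.01, mean -0.12 ± 0.28) and from -0.28 to 0.34 at 6 weeks (median -0.05, mean -0.02 ± 0.25). It ran from -0.37 to 0.44 at 9 weeks (median -0.08, mean -0.03 ± 0.29) and from -0.19 to 0.16 at 20 weeks (median 0.09, mean 0.04 ± 0.14). The values lay on both sides of 0 at every week, above it on 11 of 24 arrays, and Anxa11 was the lowest of the 8 genes on 19 of 24.

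Whether the ratio of an annexin differed between weeks is a separate contrast in the same limma fit. The 1 annexin that passed was Anxa1, higher at 20 than at 3 weeks by 0.56 (SE 0.16, adjusted p = 0.0470, 95% interval 0.23 to 0.89). Its 20-week arrays lay between 0.49 and 1.01 and its 3-week arrays between -0.05 and 0.41, and 1.29% of all items had every 20-week array above every 3-week array. The adjusted p was close to the threshold: it ranged from 0.00677 to 0.148 over 19 alternatives, 7 of them past it. Leaving out 3-week array 1, 3, 5 or 6, or 20-week array 1, 2, 4, 5 or 6, ended the call, with adjusted p from 0.0566 to 0.117. Over all 24 arrays left out in turn, the count of annexins stayed at 1 in 5 fits, was 2 without 9-week array 2 and was 0 in the rest. Background shares past the threshold were 4.57% of all items for 20 against 3 weeks and 5.08% for any difference between the 4 weeks.

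Of the remaining annexins 0 passed the adjusted limma test for 20 against 3 weeks, and Anxa3 and Anxa5 had unadjusted p under 0.05 beside Anxa1, 3 of 8 against 17.9% of all items. Anxa3 was higher by 0.47 (SE 0.18, interval 0.09 to 0.85, adjusted p = 0.161) and Anxa5 by 0.62 (SE 0.25, interval 0.09 to 1.14, adjusted p = 0.186). The interval was -0.12 to 0.55 for Anxa4 and -0.12 to 0.46 for Anxa11. For any difference between weeks 0 of 8 annexins passed in limma, with adjusted p of 0.0649 for Anxa3, 0.0981 for Anxa1 and 0.110 for Anxa5, the 3 with an unadjusted p under 0.05, which 19.6% of all items had.

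Neighbouring weeks showed no annexin past the adjusted threshold in limma. For 6 against 3 weeks this was 0 of 8, against 1.3% of all items, with 3 annexins at an unadjusted p under 0.05, against 13.2% of all items. These were Anxa5 (higher by 0.65, interval 0.12 to 1.17), Anxa3 (0.48, interval 0.11 to 0.86) and Anxa1 (0.40, interval 0.07 to 0.74). Scaling all arrays to a common spread turned the Anxa5 difference to -0.078, since it moved the 3-week mean to 3.10 and the 6-week mean to 3.02. For 9 against 6 weeks 0 of 8 passed, against 0.0767% of all items, and 1 had an unadjusted p under 0.05, against 7.7% of all items. It was Anxa6, higher by 0.32 with arrays that did not overlap, as in 0.211% of all items with every 9-week array above every 6-week array. For 20 against 9 weeks 0 of 8 passed, against 0.0959% of all items, and 1 had an unadjusted p under 0.05, against 11.5% of all items. It was Anxa2, lower by 0.75 on the log2 scale with an interval of -1.36 to -0.15 and overlapping arrays.

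**Figure D2:**
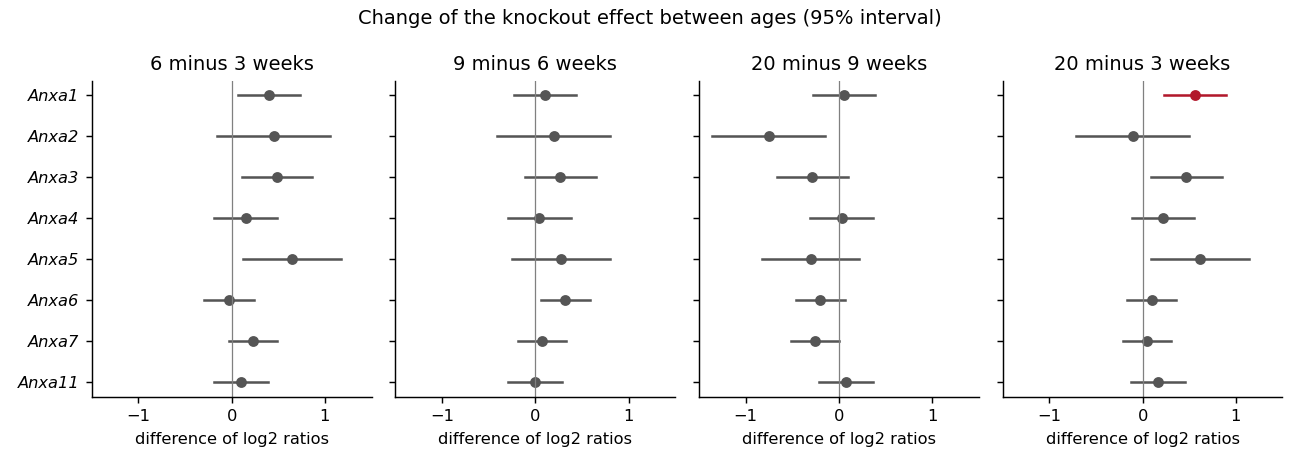
Difference of mean log2 ratios between weeks (horizontal axes) for the 8 annexins (vertical axis) in 4 contrasts; points are the limma estimates and bars their 95% intervals, red where the adjusted p is under 0.05. Only Anxa1 at 20 against 3 weeks is red, at 0.56.

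Dye orientation did not pass the test for any member: 0 of 8 annexins had an adjusted p under 0.05 for the dye term in limma, against 11.5% of all items, and 2 had an unadjusted p under 0.05, against 28.3% of all items. Those were Anxa2, whose arrays with the knockout in Cy5 were higher by 0.46 than those with it in Cy3, and Anxa4, higher by 0.26. Every weekly mean averages 3 arrays of each orientation, in which such a gap cancels.

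Array 2 of the 9-week set stood apart for several members at once. It held the highest 9-week value of Anxa1 (1.51), Anxa2 (3.09), Anxa3 (1.92), Anxa4 (1.23), Anxa5 (4.36) and Anxa11 (0.44), and the lowest of Anxa6 (0.43). Without it the fitted 9-week means were 0.48 for Anxa1, 2.19 for Anxa2, 0.80 for Anxa3, 0.40 for Anxa4 and 3.37 for Anxa5. On the same array the medians of the cholangiocyte, macrophage and stellate marker lists were also the highest of the 9-week set, at 1.25, 1.18 and 0.98. The part of these cells in the annexin values was not tested.

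Across the 24 arrays the members did not all vary together. Anxa1 to Anxa5 formed 10 pairs with r from 0.44 to 0.79 and a median of 0.67, and r from 0.46 to 0.78 after the weekly means were removed. Anxa6 had r of -0.27 to 0.00 with those genes, and -0.42 to -0.36 within weeks. Anxa7 had r of 0.23 to 0.37 with the same genes, and -0.0035 to 0.25 within weeks. For Anxa11 the r was 0.04 to 0.63, and 0.05 to 0.61 within weeks. Anxa6 and Anxa7 had r of 0.37 with each other. The arrays share dye orientations and, in part, mice, so these r are descriptions over 24 points that are not independent.

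Genes nearest to each annexin by r over the 24 arrays were taken by a fixed rule from the named genes with a standard symbol. Clone names and predicted genes were passed over. For Anxa2 the first was S100a11 (r = 0.90, and 0.89 within weeks), the top of 15892 genes ranked, then Slco3a1 (0.87) and Nid1 (0.86). For Anxa1 the first was S100a6 (r = 0.89), likewise the top of 15892, then Ltbp3 (0.88) and Nap1l1 (0.88). Anxa5 was nearest to Sh3bgrl3 (0.89), Niban2 (0.88), Dtx3 (0.87), Rgs2 (0.87) and Sparc (0.86). Anxa3 was nearest to Scd2 (0.94), Tspan3 (0.91) and Clca3a2 (0.90), and Anxa4 to Ctnna1 (0.87), Ttc3 (0.86) and Phtf1 (0.85). Anxa7 was nearest to Msn (0.88), Prune1 (0.87) and Olfml1 (0.87). The highest r were lower for Anxa6 (Tm6sf2, 0.79, Oas1b, 0.78, and Ass1, 0.76) and for Anxa11 (Txn2, 0.74, Pttg1ip, 0.71, and Rpl28, 0.70).

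The S100 partners of the annexins differed in size and in the weeks at which they passed the threshold. No contrast between weeks is given for them. Here and below, rose and fell mean higher and lower in the knockout past the threshold at that week. S100a11, known to bind Anxa1, rose at all 4 weeks (2.05 ± 0.58, 2.21 ± 0.54, 2.42 ± 0.58 and 1.83 ± 0.34, limma adjusted p from 3.22e-08 to 2.55e-06). S100a6, a partner of several annexins, was at 0.13 ± 0.28 at 3 weeks and rose at 6, 9 and 20 weeks (0.88 ± 0.60, 1.12 ± 0.56 and 1.01 ± 0.48). S100a10, the light chain of the Anxa2 complex, rose at 3 weeks (1.02 ± 0.87, adjusted p = 0.00177) and did not pass at later weeks (0.46, 0.44 and 0.42). Its 3-week arrays split into 1.49, 1.75 and 2.05 against -0.15, 0.36 and 0.60. Its r with Anxa2 was 0.06 over the 24 arrays, place 7229 of 15892, and that of S100a11 with Anxa1 was 0.46.

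**Figure D3:**
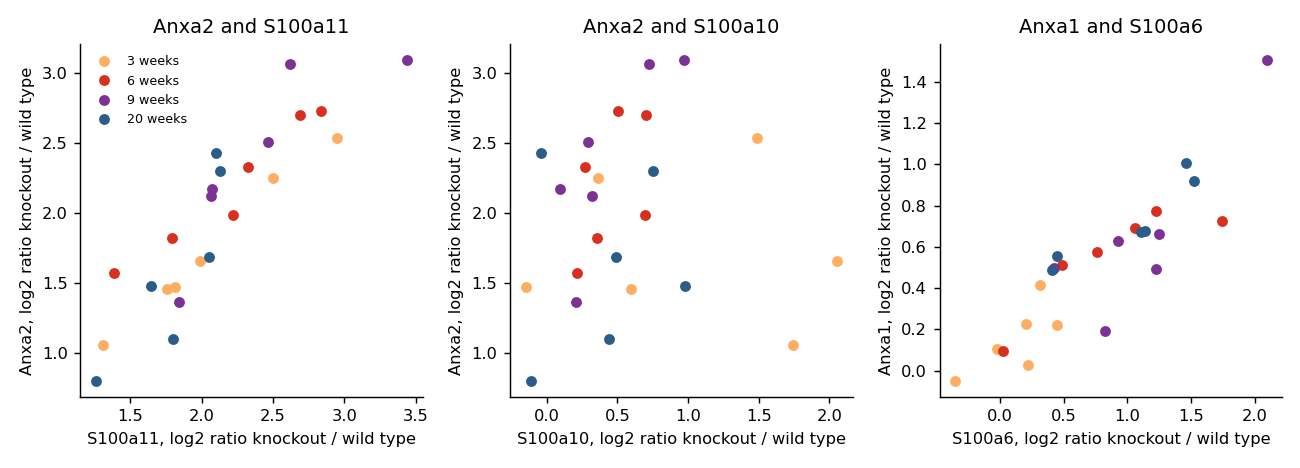
Log2 ratio of an annexin (vertical axis) against that of an S100 gene (horizontal axis); each point is 1 of 24 arrays, coloured by week. Anxa2 follows S100a11 (r = 0.90) and Anxa1 follows S100a6 (r = 0.89), while Anxa2 against S100a10 is scattered (r = 0.06).

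Of 14 measured binding partners, 4, 5, 5 and 6 rose at 3, 6, 9 and 20 weeks, and 1 fell, at 20 weeks. Their list medians were 0.15, 0.24, 0.21 and 0.14. Over all items, 3.64%, 10.8%, 10.4% and 8.09% were called higher at 3, 6, 9 and 20 weeks. In the same order 3.75%, 10.1%, 10.9% and 5.37% were called lower. The counts of every list below stand beside these shares. Beside the S100 genes, the giant scaffold Ahnak, which binds the Anxa2 complex, rose at all 4 weeks by small amounts (0.19 ± 0.08 to 0.26 ± 0.13). Sri, the calcium-binding partner of Anxa7, rose at all 4 weeks too (0.34 ± 0.25 to 0.47 ± 0.23), and Plat, the plasminogen activator that Anxa2 binds, rose from 6 weeks on, with means of 0.36 ± 0.22, 0.62 ± 0.23 and 0.45 ± 0.13. Where Sri and the other partner genes lie relative to Abcb4 was not looked up, and any effect of lying near it was not tested. The partner that fell at 20 weeks, named after its values were seen, was Plg, plasminogen itself (-1.39 ± 0.54, adjusted p = 0.0219, 0 of 6 arrays above 0); it did not pass at 3, 6 and 9 weeks (0.37 ± 1.70, 0.22 ± 0.70 and -0.65 ± 0.75). Of 13 S100 genes measured, 2, 3, 2 and 2 rose and 2, 3, 1 and 1 fell at 3, 6, 9 and 20 weeks, with list medians from 0.00 to 0.04. S100a9, a neutrophil S100 gene, fell at 6 and 9 weeks (-0.53 ± 0.48 and -0.80 ± 0.62), while its partner S100a8 rose at 6 weeks (0.37 ± 0.17) and did not pass at 3, 9 and 20 weeks (0.00, 0.26 and 0.29).

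Annexins take part in plasma membrane repair, and of 17 other measured genes of that process 3, 6, 7 and 5 rose at 3, 6, 9 and 20 weeks, with 1 fall at 3 weeks and list medians of 0.13, 0.09, 0.17 and 0.08. Chmp3, a subunit of the ESCRT-III complex that sheds damaged membrane, rose at all 4 weeks (0.92 ± 0.18, 1.08 ± 0.17, 1.38 ± 0.25 and 1.11 ± 0.20). Capns1, the small calpain subunit, rose at all 4 as well, from 0.47 ± 0.31 at 20 weeks to 0.69 ± 0.33 at 9 weeks. Ehd4, which remodels endocytic membrane, rose at 6, 9 and 20 weeks (0.60 ± 0.32, 0.72 ± 0.28 and 0.48 ± 0.24), and Myof, a ferlin, rose at 9 and 20 weeks (0.18 ± 0.13 and 0.19 ± 0.09).

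Genes that expose, hide or recognise phosphatidylserine, the lipid that Anxa5 binds, moved in both directions. Of 23 measured without Anxa5, 4, 8, 10 and 4 rose and 1, 2, 3 and 3 fell at 3, 6, 9 and 20 weeks, with list medians of -0.01, 0.08, 0.14 and 0.03. Plscr1, a membrane scramblase-family protein induced by interferon, rose at all 4 weeks (1.32 ± 0.39, 1.37 ± 0.37, 1.29 ± 0.65 and 1.00 ± 0.40). Itgb5 and Itgav, integrin chains that bind bridging proteins on dying cells, both rose at 6 weeks (0.45 ± 0.29 and 0.46 ± 0.15) and 9 weeks (0.93 ± 0.35 and 0.23 ± 0.16). Itgb5 rose at 20 weeks too (0.86 ± 0.39), and Itgav at 3 weeks (0.23 ± 0.08). Pros1, the bridging ligand of the TAM receptors, rose at 6, 9 and 20 weeks (0.47 ± 0.12, 0.45 ± 0.29 and 0.61 ± 0.16). The genes that fell are named after their values were seen. Xkr8 fell at 6, 9 and 20 weeks (-0.21 ± 0.15, -0.21 ± 0.14 and -0.26 ± 0.16) and Tmem30a at 3 and 9 weeks (-0.67 ± 0.55 and -0.55 ± 0.35). Havcr1 fell at 6 and 20 weeks (-0.40 ± 0.16 and -0.39 ± 0.13) and Atp8b1 at 9 and 20 weeks (-0.20 ± 0.11 and -0.19 ± 0.18).

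Of the 4 other annexins measured, 3 rose at some weeks and Anxa10 fell. Anxa13, an epithelial annexin, rose at all 4 weeks (0.22 ± 0.12, 0.24 ± 0.10, 0.45 ± 0.24 and 0.24 ± 0.13) and was above 0 on 24 of 24 arrays. Anxa10, which lacks most calcium sites of the family, fell at 9 and 20 weeks (-0.30 ± 0.19 and -0.40 ± 0.10, limma adjusted p = 0.0222 and 0.00525) with 0 of 6 arrays above 0 in each, and did not pass at 3 and 6 weeks (-0.10 ± 0.28 and -0.21 ± 0.31). Anxa9 rose at 6, 9 and 20 weeks by small amounts (0.20 ± 0.19, 0.15 ± 0.11 and 0.19 ± 0.11).

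Anxa8 was spotted 10 times, so its copies show the noise between spots of an array, without the noise of labelling or between hybridisations. Its means were 0.15 ± 0.09, 0.56 ± 0.22, 0.43 ± 0.26 and 0.18 ± 0.30, past the threshold at 6 weeks (adjusted p = 1.49e-04) and 9 weeks (adjusted p = 0.00148). The SD between its single copies on an array was 0.0643 to 0.186 with a median of 0.0957. The SD between arrays is of means of the 10 copies, so the SDs are of unlike quantities. It was 0.0947 at 3 weeks, 0.215 at 6, 0.263 at 9 and 0.299 at 20 weeks. All its 6-week arrays were above all 3-week arrays, as in 0.786% of all items; the difference of 0.42 had an adjusted p of 0.127. At 20 weeks its arrays ran from -0.17 to 0.60 and lay on both sides of 0.

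**Figure D4:**
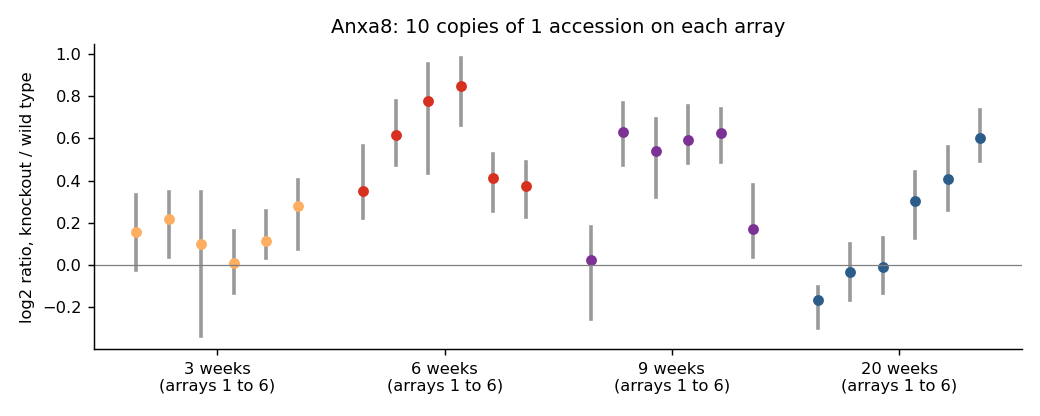
Log2 ratio of Anxa8 (vertical axis) on each of the 24 arrays in order of week (horizontal axis); points are means of 10 copies of its feature and bars run from the lowest to the highest copy. At 20 weeks the points run from -0.17 to 0.60, on both sides of 0.

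Markers of other liver cells moved beside the annexins. Of 18 measured cholangiocyte markers, without Anxa13, 8, 11, 12 and 11 rose at 3, 6, 9 and 20 weeks and 1 fell, at 20 weeks. The keratins Krt8 and Krt18, which hepatocytes also make, were at 2.29 ± 0.46 and 2.11 ± 0.48 at 3 weeks, and the trefoil peptide Tff3 at 1.21 ± 0.32 then and at 2.36 ± 0.25 at 6 weeks. Cdh1 rose at 3 weeks too (0.98 ± 0.55). So did Krt23, Elf3, Cldn7 and Prom1, named after their values were seen (1.00 ± 0.56, 1.31 ± 0.46, 0.43 ± 0.24 and 0.52 ± 0.28). Of the 18 markers, 10 did not pass at 3 weeks. The biliary markers Krt19, Krt7, Epcam and Sox9, named after their values were seen, did not pass at 3 weeks (0.02 ± 0.11, -0.06 ± 0.07, 0.26 ± 0.12 and 0.05 ± 0.23); at 6 weeks Krt19, Krt7 and Epcam rose (0.51 ± 0.14, 0.39 ± 0.17 and 0.84 ± 0.23) and Sox9 did not pass (0.09 ± 0.37). The shares of all items called lower, against which falls are read, were 3.75%, 10.1%, 10.9% and 5.37%. Of 22 stellate and myofibroblast markers 9, 16, 17 and 12 rose, with the collagen Col3a1 at 1.38 ± 0.51 at 3 weeks and 2.29 ± 0.52 at 9 weeks. Of 20 macrophage markers 8, 15, 15 and 13 rose, with the lysozyme Lyz2 at 1.02 ± 0.45 at 3 weeks and 2.45 ± 0.54 at 9 weeks. None of the stellate or macrophage markers fell past the threshold in these fits.

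Hepatocyte markers went the other way, with 7, 7, 8 and 3 of 16 falling and 0 rising at any week, among them Cyp2e1 (-1.01 ± 0.25, -1.60 ± 0.26, -1.49 ± 0.45 and -1.05 ± 0.49). Of 12 neutrophil markers 0, 1, 0 and 0 rose and 1, 1, 2 and 0 fell, of 17 lymphocyte markers 2, 4, 3 and 3 rose, and of 16 endothelial markers 0, 4, 1 and 0 rose and 0, 2, 0 and 1 fell. List medians on single arrays ran from 0.21 to 1.25 for cholangiocytes, 0.15 to 0.98 for stellate cells, 0.09 to 1.18 for macrophages and -0.99 to -0.05 for hepatocytes. Over the 24 arrays the r between these array medians and Anxa1 to Anxa5 ran from 0.45 to 0.82 for cholangiocytes, 0.50 to 0.78 for stellate cells and 0.43 to 0.73 for macrophages. In the same order the r was 0.33, 0.09 and -0.16 with Anxa6, 0.53, 0.65 and 0.12 with Anxa7, and 0.19, 0.30 and 0.50 with Anxa11. Within weeks the macrophage r with Anxa1 to Anxa5 went down to 0.31, with Anxa2. For the other lists, r with Anxa1 to Anxa5 ran from 0.04 to 0.38 for hepatocytes and from -0.62 to -0.29 for neutrophils. It ran from 0.09 to 0.33 for lymphocytes and from -0.17 to 0.26 for endothelial cells. The part of these cell types in the annexin ratios was not tested.

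**Figure D5:**
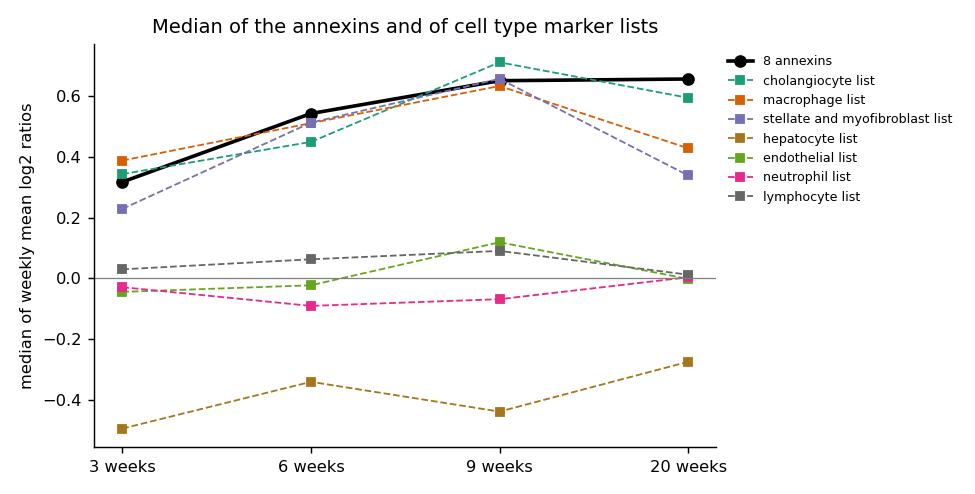
Median of weekly mean log2 ratios (vertical axis) of the 8 annexins and of 7 marker lists without annexins by week (horizontal axis, weeks at equal spacing). The annexins run from 0.32 to 0.66 beside the cholangiocyte, macrophage and stellate lists, the hepatocyte list stays below 0, and the neutrophil, lymphocyte and endothelial lists stay near 0.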

How the data were processed

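Per the labels, liver total RNA was prepared by an RNeasy protocol, dye-labelled with the FairPlay kit and put on spotted arrays. The authors deposited 1 log ratio per feature and array, read here as log2 values. The sources used here do not name the background correction, normalization or filters. Precision is limited by how many arrays there are.

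Values were joined to the platform annotation through the array grid (215 rows by 105 columns, both axes reversed, read by column): over 48 accessions spotted 10 or 11 times, copies then correlated with a mean r of 0.663, against 0.00721 for a direct join. Ratios were turned in sign where the wild type was in Cy5, arrays were median-centred, and features were averaged per symbol, giving 16504 named genes among 20861 items. limma 3.58.1 (R 4.3.3) fitted a mean per week and a dye term over 24 arrays, with Benjamini-Hochberg adjustment over all items and a threshold of 0.05; it was tested on simulated data. The members and gene lists were chosen with earlier results of these data known. Genes named are all annexins measured and up to 4 genes of each list with the smallest p for the mean of the weekly means. Also named are the 5 nearest genes to Anxa5 and 3 to each other member by r, with clone and predicted names passed over. S100a8 was named outside this rule, and Abcb4 as the check of direction. Named outside it after their values were seen were Plg, Xkr8, Tmem30a, Havcr1, Atp8b1, Krt19, Krt7, Epcam, Sox9, Krt23, Elf3, Cldn7 and Prom1. Alternatives were other centring, quantile normalization, a common spread, no dye term, the weeks alone, a replicate block and each array left out in turn. Another averaged the opposite-dye pair with the highest r in each week, and whether such a pair shares mice is not known. Other columns of sample values numbered 0. Same-numbered arrays of different weeks were taken to hold different mice, since the series text gives 5 mice per genotype and week.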

Additional observations from a re-analysis of the deposited data

Results flagged for a closer look

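Anxa1 on array 2 of the 9-week set had a log2 ratio of 1.51, far above the other 5 arrays of that week. Anxa11 on array 3 of the 3-week set was at -0.69, far below the others, and Anxa13 on array 6 of the 20-week set was at 0.49, far above the others. These are 3 of 48 groups of 6 arrays checked, and chance marks about 1 in 20 groups.

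Anxa1 was higher in the knockout by 0.56 more at 20 than at 3 weeks, the 1 annexin whose ratio differed between weeks past the adjusted threshold in limma. The call was close to the threshold (limma adjusted p = 0.0470) and held in 7 of 19 alternatives. In the limma test of any difference between weeks Anxa1 did not pass (adjusted p = 0.0981).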

How the results depend on the processing

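At 6, 9 and 20 weeks the number of annexins past the threshold was 6 or 7 in every alternative run. At 3 weeks it was 5, and 2 with the 3-week arrays fitted alone, 2 with the closest pair of opposite dye in each week averaged, and 2 without 3-week arrays 1 and 2, a choice made after seeing the data. Leaving out each array in turn gave 2 to 5 at 3 weeks; the lowest, 2, came without 3-week array 1 and without 3-week array 4. For any difference between weeks the count was 0, and 2 under quantile normalization and 2 with a common spread, and 0 to 2 leaving out each array (2 without 9-week array 2). For 6 against 3 weeks it was 0, and 0 to 1 leaving out each array (1 without 9-week array 2). For 20 against 3 weeks it was 1, and 2 under quantile normalization, 2 with those weeks alone, 0 without the dye term, 0 with the closest pair averaged, and 0 to 2 leaving out each array. Anxa5 at 6 against 3 weeks turned to -0.078 with a common spread. The cause of these changes was not tested. Same-numbered arrays of different weeks had r of -0.364 to 0.496 over 36 pairs, 18 over 0.1. Their median r was 0.0921, against -0.00959 for the other pairs. Whether same-numbered arrays share an effect was not tested. With the replicate block the 20 against 3 weeks count was 0. Features one by one gave no other value, since each annexin has 1. How far each feature stood above background was not used here, which limits what can be said of dim features.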
